A study of Homo sapiens with 15 samples.

Results

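The transcripts of 7 amino acid enzymes were followed in PSN-1 cells: ASNS, CHAC1, CTH, CBS, PYCR1, ALDH18A1 and GPT2, chosen by gene symbol as the enzymes of asparagine and proline synthesis, of cysteine supply, of glutathione breakdown and of alanine formation. They are 7 of the 26485 gene symbols counted, and all 7 passed the filter on low counts in every comparison. PSN-1 is an established human line of pancreatic ductal adenocarcinoma (PDAC). It was grown in RPMI medium with 10% fetal bovine serum, and every group was collected after 72 hours. In a first experiment, transfections used a control siRNA (siControl), one that targets MondoA (siMondoA; the gene MLXIP) or one that targets MLX (siMLX). A second experiment compared DMSO, the vehicle, with SBI-477, a compound the labels name as an inhibitor of MondoA. Each of the 5 groups has 3 RNA-seq libraries, 15 in all. A single cell line was used, neither the siRNA sequences nor the dose of SBI-477 are given in the sources used here, and nothing says that the libraries of a group came from separate cultures, so p-values measure the spread between libraries, which may be technical.

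MondoA is a transcription factor that pairs with MLX, responds to glucose-6-phosphate and binds carbohydrate response elements, of which TXNIP has the best known. The 7 enzymes belong to another well-known program. When amino acids run short or the endoplasmic reticulum is stressed, kinases phosphorylate the initiation factor eIF2alpha, the transcription factor ATF4 is made, and ATF4 together with C/EBP partners switches on genes for amino acid synthesis and uptake. ASNS makes asparagine from aspartate and glutamine. ALDH18A1 carries out the first steps from glutamate to proline and PYCR1 the last. CBS and CTH act in succession to pass sulfur from homocysteine to cysteine. CHAC1 cleaves glutathione, and GPT2 is the mitochondrial enzyme that exchanges amino groups between glutamate and alanine.

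Promoter sequence is shown for the 3 members whose windows hold a motif of those named below. Of these, ASNS and CHAC1 passed the test after siMondoA and ALDH18A1 did not. CTH and GPT2 also passed, but the window of CTH held no such motif and no window was found for GPT2. A link between motif and rise was not tested. RefSeq windows on GRCh38.p14, running from 250 bases before to 50 bases after a transcript start, were found for 5 of the 7 genes. They were searched on both strands for TGATGNAA, the core of the C/EBP-ATF response element, for the E-box CACGTG, and for a carbohydrate response element, taken as a pair of CACGTG E-boxes with any 5 bases between them, so that every such match also counts as an E-box. ASNS holds TGATGAAA starting 68 bases before its start, on the gene's own strand. CHAC1 holds the same core on the other strand, read as TTGCATCA, starting 209 bases before its start. ALDH18A1 holds a single E-box starting 136 bases before its start. The 250 bases before the start are printed 5′ to 3′ for these 3 genes, at chr7:97872409-97872658, minus strand for ASNS, chr15:40953221-40953470, plus strand for CHAC1 and chr10:95656712-95656961, minus strand for ALDH18A1, with the matched motif in capitals.
ASNS: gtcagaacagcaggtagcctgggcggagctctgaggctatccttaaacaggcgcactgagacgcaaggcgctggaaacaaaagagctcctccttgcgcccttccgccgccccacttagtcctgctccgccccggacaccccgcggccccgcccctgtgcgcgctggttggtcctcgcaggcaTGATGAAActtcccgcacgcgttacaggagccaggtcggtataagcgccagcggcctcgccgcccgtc
CHAC1: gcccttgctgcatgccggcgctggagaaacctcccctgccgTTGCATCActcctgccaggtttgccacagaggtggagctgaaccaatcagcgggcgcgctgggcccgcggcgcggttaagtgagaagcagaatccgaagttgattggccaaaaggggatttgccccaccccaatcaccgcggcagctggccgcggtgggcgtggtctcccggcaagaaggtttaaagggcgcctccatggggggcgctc
ALDH18A1: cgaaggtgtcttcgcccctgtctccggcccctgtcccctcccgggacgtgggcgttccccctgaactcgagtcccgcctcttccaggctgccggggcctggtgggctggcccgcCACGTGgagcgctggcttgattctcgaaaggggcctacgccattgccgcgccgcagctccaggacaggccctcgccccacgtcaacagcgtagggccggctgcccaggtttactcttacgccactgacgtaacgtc
Over all 35116 RefSeq windows of this length, 3.62% held TGATGNAA, 7.26% held CACGTG and 0.0057% held the paired E-boxes. The window of CTH, the 3 windows of CBS and a second window of ASNS held none of these motifs. The paired E-boxes had to match exactly, and elements with less exact E-boxes would not be found. Since so few windows hold the exact pair, its absence from the members' windows says nothing about MondoA sites. A match describes these letters only and does not show that a factor binds there.

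By GENCODE v29 on GRCh38, ASNS (ENSG00000070669.16) lies at chr7:97852118-97872542 on the minus strand, CHAC1 (ENSG00000128965.12) at chr15:40952962-40956519 on the plus strand and CTH (ENSG00000116761.11) at chr1:70411218-70439851 on the plus strand. CBS (ENSG00000160200.17) lies at chr21:43053191-43076943 on the minus strand, PYCR1 (ENSG00000183010.16) at chr17:81932384-81942412 on the minus strand, ALDH18A1 (ENSG00000059573.8) at chr10:95605929-95656706 on the minus strand and GPT2 (ENSG00000166123.13) at chr16:46884378-46931297 on the plus strand. The motif distances above count from the RefSeq starts. The GENCODE spans of ASNS and CHAC1 begin further upstream, so the motif matches of these genes lie inside the spans. Reads were 25 bases long and were counted over whole genes. Of the distinct 25-base words in CBS transcripts, 56.3% also occur in CBSL, a near-identical annotated copy on chromosome 21 with no entry of its own in the count tables, so CBS values are uncertain. Of those in ASNS, 42.8% also occur in AC079781.5, an overlapping transcript on the same strand, and of those in PYCR1, 13.3% occur in the antisense transcript AC145207.4. Neither transcript is an entry in the tables, and without stated strand use their reads cannot be told apart from those of the genes. No such word of CHAC1 or ALDH18A1 was shared.

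The siRNA libraries held 11227343 to 14731691 counts and the drug libraries 23315440 to 30480362. Levels are CPM, the counts of a gene scaled to a fixed library size. A count of 0 would allow up to 3 counts, which is 0.204 to 0.267 CPM for the siRNA experiment and 0.0984 to 0.129 CPM for the drug experiment, for counting error only. The siRNA targets fell as labelled. MLXIP measured 83.0, 65.8 and 89.7 CPM with siControl against 22.3, 23.4 and 15.8 with siMondoA. MLX measured 53.0, 58.8 and 53.6 CPM with siControl against 11.9, 7.13 and 7.70 with siMLX. The 10 epithelial markers were all detected and summed to 1459 to 2886 CPM per library. Summed markers of other cells ran from 112 to 297 CPM for fibroblasts, 49.3 to 99.8 for leukocytes, 21.0 to 40.6 for endothelium and 3.26 to 80.3 for acinar and islet cells. Within these lists LUM reached 229 CPM, PRSS1 77.3, CD68 56.4 and KDR 29.2, while CD3E, CELA3A, INS and SST had 0 counts in every library and THY1, PTPRC and CLDN5 stayed under 0.2 CPM.

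Replicate 2 of siMLX and replicate 2 of both drug groups stand apart from the other libraries of their groups. Between replicates, the chi-square per degree of freedom over all genes was 42.0 and 47.6 for siMLX pairs with replicate 2 against 8.74 without it, 69.4 and 93.4 against 17.7 in DMSO, and 30.4 and 32.7 against 8.37 in SBI-477. In siMLX, replicate 2 carried the lowest MLX level, and its values of ASNS, CHAC1, CTH and GPT2 lay within the range of siMondoA, so each siMLX result is also stated without it. That library also had TXNIP at 509 CPM, against 172 and 93.3 in siMLX replicates 1 and 3. TXNIP was 778, 785 and 525 CPM in siControl and 156, 231 and 57.8 in siMondoA. In TXNIP, siMLX replicate 2 was thus nearer to siControl than to siMondoA, unlike in the 4 enzymes. In the drug experiment, TXNIP was 145, 39.1 and 203 CPM in DMSO and 75.0, 121 and 41.7 in SBI-477. The fold changes in the authors' deposited table of this experiment were matched from the counts by DESeq2 only when DMSO replicate 2 and SBI-477 replicate 2 were exchanged. The median absolute log2 difference was then under 1e-06 over 13086 genes. With the labels as given the difference was 0.196. As labelled, the drug groups overlap in TXNIP, and with the replicate 2 libraries exchanged they would not. Whether these labels were exchanged was not tested, and no member was tested with them exchanged. Libraries keep their labels here, and drug results are also given for replicates 1 and 3 alone.

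In control cells, the proline enzymes led and CHAC1 and CBS were scarce. Per kilobase of exon, mean siControl levels fell from ALDH18A1 at 34.9 CPM per kilobase through PYCR1 at 33.0, GPT2 at 16.5, ASNS at 9.87 and CTH at 4.33 to CBS at 0.464 and CHAC1 at 0.458. CBS and CHAC1 were the only neighbours in this order whose libraries overlapped. After siMondoA the order was ASNS at 113 CPM per kilobase, GPT2 at 52.8, PYCR1 at 49.0, CHAC1 at 42.0, ALDH18A1 at 29.3, CTH at 25.1 and CBS at 0.938. In that group each of the first 4 overlapped its neighbour, as did ALDH18A1 and CTH, so only the steps from CHAC1 to ALDH18A1 and from CTH to CBS were free of overlap. Averaged over the siMLX libraries the order was ASNS, PYCR1, ALDH18A1, GPT2, CHAC1, CTH and CBS, with overlap at every step but the last. The DMSO order was ALDH18A1 at 48.8 CPM per kilobase, PYCR1 at 45.3, ASNS at 31.1, GPT2 at 25.4, CTH at 3.64, CHAC1 at 1.28 and CBS at 1.07. In SBI-477, ALDH18A1 stood at 53.0, PYCR1 at 45.7, GPT2 at 23.2, ASNS at 20.6, CTH at 3.13, CHAC1 at 1.13 and CBS at 0.917. Neighbours overlapped for ASNS and GPT2 and for CHAC1 and CBS in both drug groups, and for ALDH18A1 and PYCR1 in DMSO.

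**Figure D1:**
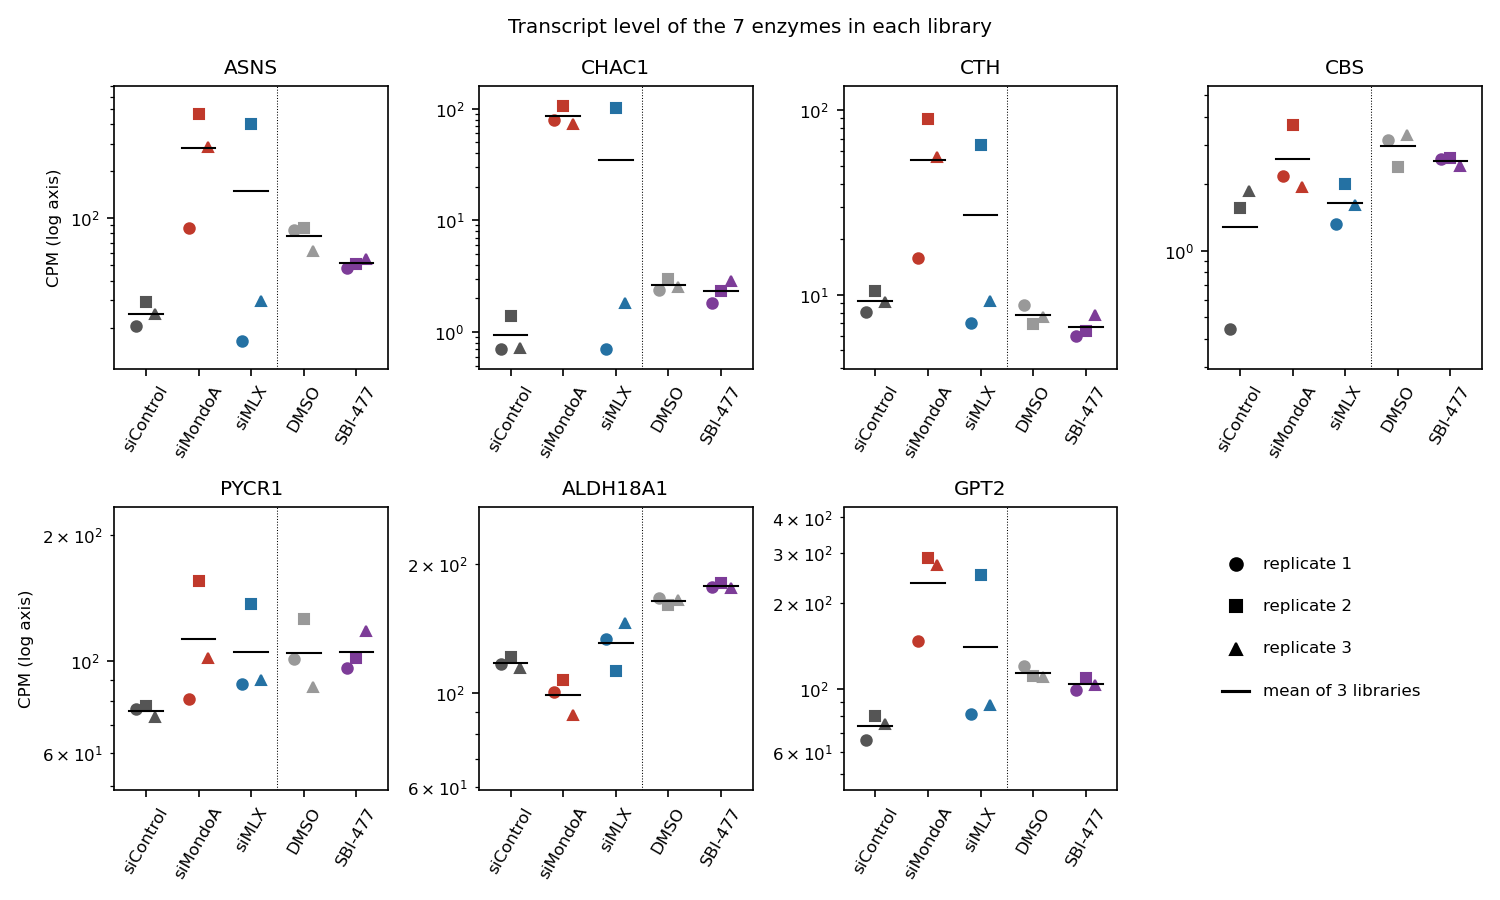
CPM of each of the 7 genes in all 15 libraries, 1 panel per gene, on a log axis; points are libraries, horizontal bars are group means. ASNS, CHAC1, CTH and GPT2 are high in the siMondoA libraries and in siMLX replicate 2, while ALDH18A1 stays between 88.6 and 181 CPM throughout.

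ASNS, CHAC1, CTH and GPT2 rose after siMondoA, and CBS, PYCR1 and ALDH18A1 did not pass the test. The rises ran from 3.20-fold for GPT2 to 91.2-fold for CHAC1. By edgeR's quasi-likelihood test with Benjamini-Hochberg adjustment over all genes, 4 of the 7 were called higher and 0 lower. Of the 13001 genes tested, 27.2% were called, 14.2% higher and 12.9% lower. The members' median log2 change was 1.68, against 0.00 over all genes tested. Libraries of siMondoA and siControl did not overlap for any of the 7, with 6 higher and ALDH18A1 lower. Among all genes tested, groups did not overlap for 47.1%, with 23.9% higher and 23.2% lower.

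ASNS, the asparagine maker, had 20.4, 28.98 and 24.4 CPM in the siControl libraries, and 86.8, 468 and 286 in those of siMondoA. Every siMondoA library was above every control, but replicate 1 was far below the other two, and the highest library was 5.39 times the lowest. The log2 difference was 3.51 ± 1.06 (SE; 95% interval 1.17 to 5.85; edgeR adjusted p = 0.0332), an 11.4-fold rise.

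CHAC1, the glutathione-cleaving enzyme, was close to undetected in siControl, with 8, 18 and 11 counts or 0.706, 1.39 and 0.725 CPM. In siMondoA it reached 79.6, 107 and 73.1 CPM, from 1030, 1336 and 909 counts. These libraries differed among themselves by only 1.46 times, so CHAC1 was high in replicate 1 as well, where ASNS and CTH rose least. Its log2 difference was 6.51 ± 1.57 (95% interval 3.04 to 9.98; edgeR adjusted p = 0.0142). The ratio of CHAC1 to ASNS counts was accordingly 0.917 in siMondoA replicate 1 and 0.228 and 0.256 in replicates 2 and 3, against 0.0297 to 0.0481 in siControl.

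In the route from homocysteine to cysteine, the second enzyme rose and the first did not pass the test. CTH stood at 8.12, 10.5 and 9.17 CPM with siControl, against 15.8, 90.0 and 55.5 in siMondoA, a log2 difference of 2.53 ± 0.82 (edgeR adjusted p = 0.0421). Its siMondoA libraries were ordered as those of ASNS were, and the ratio of CTH to ASNS counts was 0.183, 0.192 and 0.194 in them. CBS had 5, 20 and 28 counts in siControl and 28, 46 and 24 in siMondoA, or 0.441, 1.55 and 1.85 against 2.16, 3.67 and 1.93 CPM. The groups touch closely, at 1.85 and 1.93 CPM, and the log2 difference of 0.98 ± 0.43 missed the threshold (edgeR adjusted p = 0.113).

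The proline enzymes, both abundant, differed little. PYCR1, which makes proline in mitochondria, stood at 76.4, 77.9 and 73.4 CPM with siControl, against 81.0, 155 and 101 in siMondoA. Replicate 1 again lay next to the controls, and the log2 difference was 0.57 ± 0.23 (edgeR adjusted p = 0.0883). ALDH18A1, at the head of the route, stood at 117, 121 and 114 CPM with siControl, against 100.2, 107 and 88.6 in siMondoA. All 3 siMondoA libraries were lower, with a log2 difference of -0.25 ± 0.12 (95% interval -0.51 to 0.01; edgeR adjusted p = 0.140). The ratio of PYCR1 to ALDH18A1 counts was 0.642 to 0.655 in the siControl libraries and 0.809, 1.45 and 1.14 in siMondoA.

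GPT2, which links alanine to glutamate in mitochondria, stood at 65.9, 80.1 and 75.2 CPM with siControl, against 147, 289 and 272 in siMondoA. All 3 siMondoA libraries were above the controls, replicate 1 by the least. The log2 difference was 1.68 ± 0.40 (95% interval 0.79 to 2.57; edgeR adjusted p = 0.0139).

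These calls depended on which libraries entered the fit. The estimate of spread is shared by all 9 siRNA libraries. Replicate 2 of siMLX was set apart partly for its values of these genes, so smaller errors without it were partly built in. When siMLX replicate 2 was left out, the same log2 differences carried smaller errors and 5 of the 7 members were called higher, against 17.4% of all genes. In that fit the edgeR adjusted p was 4.22e-06 for CHAC1, 0.000339 for GPT2, 0.000643 for ASNS, 0.00292 for CTH and 0.0396 for PYCR1. With 1 library of siControl or siMondoA left out in turn, the number called ran from 0 without siControl replicate 1 and 1 (GPT2) without siControl replicate 2 or 3 to 5 without siMondoA replicate 1. It was 2 (CHAC1 and GPT2) without siMondoA replicate 2 or 3. The log2 differences themselves moved less in these fits, from 2.92 to 3.94 for ASNS, 6.32 to 6.90 for CHAC1, 1.94 to 2.97 for CTH and 1.51 to 1.93 for GPT2. The authors' deposited table gives log2 fold changes of 3.23 for ASNS, 6.54 for CHAC1, 2.24 for CTH, 1.12 for CBS, 0.52 for PYCR1, -0.25 for ALDH18A1 and 1.63 for GPT2 after siMondoA. In it, 3129 of 13483 genes had an adjusted p under 0.05, with ASNS, CHAC1, CTH, PYCR1 and GPT2 among them.

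**Figure D2:**
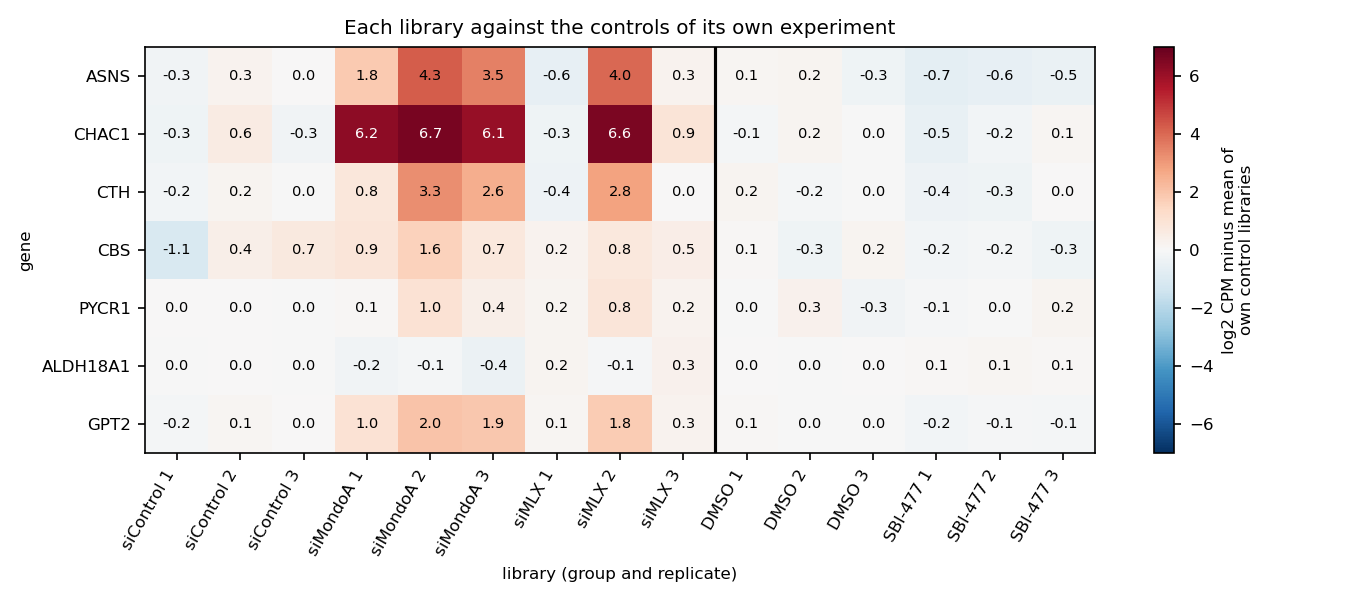
Heat map of log2 CPM minus the mean of the control libraries of the same experiment (siControl or DMSO), for 7 genes in rows and 15 libraries in columns. The siMLX replicate 2 column resembles siMondoA replicates 2 and 3 for ASNS, CHAC1, CTH and GPT2, whereas siMLX replicates 1 and 3 and the drug columns are paler.

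After siMLX the rise of these enzymes was carried by a single library. ASNS stood at 16.4, 402 and 29.4 CPM, CHAC1 at 0.705, 102 and 1.83, CTH at 7.05, 65.0 and 9.22, and GPT2 at 81.1, 251 and 87.8 in replicates 1, 2 and 3. Replicate 2 lay within the siMondoA range for each of these 4 genes, and replicates 1 and 3 lay at or near siControl. PYCR1 showed the same pattern at a smaller scale, with 87.7, 137 and 89.8 CPM, and every siMLX library was above siControl for PYCR1 and GPT2. Groups did not overlap for 33.4% of all genes tested, with 16% higher after siMLX. ALDH18A1 stood at 134, 112 and 146 CPM and CBS at 1.32, 1.99 and 1.60, both overlapping siControl.

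With all 3 siMLX libraries, edgeR called 0 of the 7 members, against 8.41% of the 13001 genes tested. At an unadjusted p under 0.05 it named 3 of the 7 (ASNS, CHAC1 and GPT2), against 26% of genes. DESeq2 called 0 of the 6 members to which it gave an adjusted p, and gave none to CHAC1. The log2 differences were 2.61 ± 1.03 for ASNS (edgeR adjusted p = 0.137), 5.21 ± 1.55 for CHAC1 (0.0644), 1.56 ± 0.81 for CTH (0.252) and 0.93 ± 0.40 for GPT2 (0.169). PYCR1 differed by 0.47 ± 0.23, ALDH18A1 by 0.16 ± 0.12 and CBS by 0.33 ± 0.45. Without replicate 2 the log2 differences were -0.095 ± 0.54 for ASNS, 0.47 ± 0.47 for CHAC1, -0.18 ± 0.56 for CTH, 0.16 ± 0.51 for CBS, 0.23 ± 0.21 for PYCR1, 0.26 ± 0.11 for ALDH18A1 and 0.20 ± 0.23 for GPT2. In that fit edgeR called 0 of the 7 as well, against 6.27% of genes, with adjusted p-values from 0.197 to 0.939. Since replicate 2 was set apart partly for its values of these genes, smaller differences without it follow from that choice. CHAC1 was called when siMLX replicate 1 or 3 was left out instead (log2 difference 5.78 and 5.77, edgeR adjusted p = 0.0263 and 0.048), which leaves replicate 2 as 1 of only 2 siMLX libraries. Replicate numbers may pair siControl with siMLX libraries, though no label says so. A fit with the replicate block again called 0 of the 7, against 14% of genes. Restricted to these 6 libraries, the blocked fit called CHAC1 alone (4.38 ± 1.06, edgeR adjusted p = 0.0385). The authors' deposited table gives 1.11 for ASNS, 2.19 for CHAC1 and 0.72 for GPT2 after siMLX. In it, 1461 of 12442 genes had an adjusted p under 0.05, with none of the members among them.

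In the direct test of siMondoA against siMLX with all 9 libraries, ALDH18A1 alone among the 7 passed. It was lower after siMondoA, by -0.41 ± 0.12 on the log2 scale (95% interval -0.67 to -0.14; edgeR adjusted p = 0.0478), with no overlap between 88.6 to 107 CPM in siMondoA and 112 to 146 in siMLX (15.4% of genes were lower without overlap). That is 1 of the 7, against 12.9% of genes called in either direction and 6.21% called lower, and the call was lost in each fit without a siMondoA library or without siMLX replicate 1 or 3 (edgeR adjusted p from 0.0630 to 0.168). For the other 6 members the log2 differences were 0.90 ± 0.96 for ASNS, 1.30 ± 1.11 for CHAC1, 0.98 ± 0.76 for CTH, 0.65 ± 0.43 for CBS, 0.10 ± 0.23 for PYCR1 and 0.75 ± 0.39 for GPT2. Replicate 2 of siMLX was set apart partly because its ASNS, CHAC1, CTH and GPT2 values resembled siMondoA. Larger differences in these genes without it follow from that choice and are no separate evidence. Without siMLX replicate 2, edgeR called 5 of the 7, against 22.5% of genes. ASNS was then higher after siMondoA by 3.60 ± 0.59 (edgeR adjusted p = 0.00261), CHAC1 by 6.05 ± 0.35 (2.06e-05), CTH by 2.71 ± 0.56 (0.00797) and GPT2 by 1.48 ± 0.24 (0.00259), and ALDH18A1 was lower by -0.50 (0.0108). The siMLX and siMondoA comparisons share their control libraries.

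With the libraries labelled as given, SBI-477 did not move any of the 7 past the threshold, nor any other gene tested. With replicates 1 and 3 alone, ASNS passed. ASNS stood at 83.7, 87.3 and 61.6 CPM in DMSO and at 48.0, 51.0 and 55.3 in SBI-477. All 3 SBI-477 libraries were below all 3 DMSO libraries, by -0.60 ± 0.15 on the log2 scale (95% interval -0.94 to -0.26), which is the opposite direction to siMondoA. With the replicate 2 libraries exchanged, the groups would overlap. CHAC1 stood at 2.36, 2.99 and 2.54 CPM in DMSO and at 1.82, 2.32 and 2.85 in SBI-477, and CTH at 8.81, 6.94 and 7.63 and at 5.98, 6.34 and 7.78. Both overlapped between the groups. GPT2, at 120.2, 110.4 and 109.8 CPM in DMSO and 99.1, 109 and 103 in SBI-477, was lower without overlap by -0.14 ± 0.10, and ALDH18A1, at 167, 160.3 and 165 and at 177, 181 and 176, was higher without overlap by 0.11 ± 0.09. PYCR1 stood at 101, 126 and 86.3 CPM in DMSO and 95.8, 101 and 118 in SBI-477, and CBS at 3.16, 2.38 and 3.33 and at 2.58, 2.61 and 2.40.

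In this comparison edgeR called 0 of the 7 members and 0% of the 14023 genes tested. ASNS had an unadjusted p of 0.00378, the ninth smallest of all genes (rank 9), and was the only member below 0.05, against 2.92% of genes, and DESeq2 called 0 genes. Groups did not overlap for 3 of the 7 members, against 9.35% of genes, with 5% of genes higher and 4.35% lower. All 3 would overlap with the replicate 2 libraries exchanged. With replicates 1 and 3 of both groups, ASNS was lower by -0.50 ± 0.14 and was called (edgeR adjusted p = 0.0349), 1 of the 7 members, against 18.1% of genes. The other 6 then differed by -0.39 (CBS) to 0.18 (PYCR1) and were not called. The authors' deposited table, which was matched with the replicate 2 libraries exchanged, gives -0.04 for ASNS, 0.08 for CHAC1, -0.14 for CTH, -0.30 for CBS, 0.24 for PYCR1, 0.00 for ALDH18A1 and -0.11 for GPT2. In it, 2941 of 14656 genes had an adjusted p under 0.05, with none of the members among them.

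The SBI-477 effect, with the libraries labelled as given, differed from the siMondoA effect for ASNS, CHAC1 and GPT2. In an interaction contrast over all 15 libraries, the drug effect minus the siRNA effect was -4.09 ± 1.18 for ASNS (edgeR adjusted p = 0.0473), -6.69 ± 1.72 for CHAC1 (0.0304) and -1.80 ± 0.47 for GPT2 (0.0323). These are 3 of the 7, against 7.67% of genes in either direction and 3.83% lower. CTH at -2.74 ± 0.95 (0.0857), CBS at -1.20 ± 0.50, PYCR1 at -0.55 ± 0.31 and ALDH18A1 at 0.38 ± 0.15 did not pass. With drug replicates 1 and 3 alone, only GPT2 was called, at -1.85 (edgeR adjusted p = 0.0498), while ASNS stood at -3.99 (0.0834) and CHAC1 at -6.59 (0.0587). Leaving out each of the 12 libraries of this contrast in turn gave 0 to 4 members called.

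**Figure D3:**
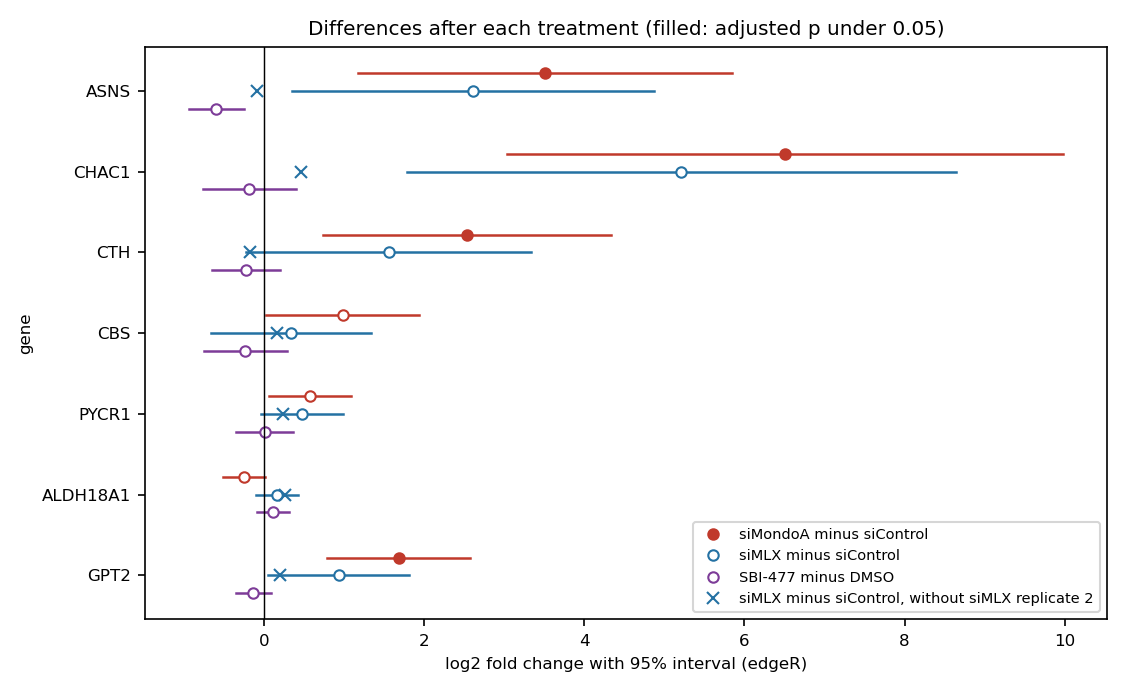
Log2 difference of each gene with its 95% interval from edgeR for siMondoA minus siControl, siMLX minus siControl and SBI-477 minus DMSO; crosses give siMLX without replicate 2. The siMondoA intervals of 6 genes lie above 0, those of CBS and PYCR1 only just, and that of ALDH18A1 spans 0; the crosses lie between -0.18 and 0.47, and the SBI-477 points lie between -0.60 and 0.11.

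The other genes of these pathways were taken from 6 lists of 94 distinct genes with the members left out; 89 were found under their symbol and 5 under an earlier one. Their counts after siMondoA are read against the 14.2% of all genes called higher and the 12.9% called lower, and no test was made of a list or between lists. Of 9 tested genes of asparagine and aspartate metabolism, 1 rose and 1 fell, with a median log2 change of -0.09, and leaving out 1 library in turn gave 0 to 1 in each direction. GOT1, the cytosolic enzyme that makes aspartate from oxaloacetate, rose from 36.9 ± 3.55 to 77.7 ± 20.7 CPM (mean ± SD, n = 3; log2 1.08 ± 0.27, edgeR adjusted p = 0.0175). Of 11 genes of proline, ornithine and glutamate metabolism, 0 rose and 4 fell, with a median of -0.35, and leaving out 1 library in turn gave 0 to 2 rising and 1 to 4 falling. ALDH4A1, which completes proline breakdown to glutamate, fell from 19.5 ± 4.96 to 5.97 ± 1.24 CPM (log2 -1.69 ± 0.26, edgeR adjusted p = 0.00212). OAT, which makes the proline precursor from ornithine, changed by -0.76 ± 0.21 and PEPD, which frees proline from dipeptides, by -0.38 ± 0.11 on the log2 scale.

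Of 14 tested genes of transsulfuration, the methionine cycle and cysteine oxidation, the list around CBS and CTH, 0 rose and 8 fell after siMondoA, with a median log2 change of -0.47. The 8 were MAT2A, MAT2B, AHCY, AHCYL1, MPST, TST, CSAD and SUOX, of which the last 4 act on cysteine sulfur, its oxidation products or related sulfur compounds and not in the methionine cycle. AHCY, which releases the homocysteine that CBS uses, fell from 476 ± 6.01 to 275 ± 20.01 CPM (mean ± SD, n = 3; log2 -0.79 ± 0.10, edgeR adjusted p = 0.000965). MAT2A, which makes S-adenosylmethionine, fell from 246 ± 28.98 to 149 ± 31.5 CPM, and its regulatory partner MAT2B from 138 ± 6.24 to 83.2 ± 14.5 CPM. Leaving out 1 library in turn gave 4 to 8 falling genes in this list.

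Around CHAC1, 4 of 15 tested glutathione genes rose and 2 fell, with a median log2 change of 0.03. SLC7A11, the cystine importer, rose from 4.39 ± 1.66 to 95.9 ± 50.1 CPM (mean ± SD, n = 3; log2 4.43 ± 1.03, edgeR adjusted p = 0.0123). GCLM, the helper subunit of the first enzyme of glutathione synthesis, rose by 1.06 ± 0.23, and ANPEP, a membrane peptidase that splits the dipeptide left after glutathione breakdown, by 0.67 ± 0.13. Around GPT2, 4 of 11 tested aminotransferases rose and 1 fell, with a median of 0.54. PSAT1, of serine synthesis, rose from 63.0 ± 4.48 to 295.8 ± 156 CPM and GFPT1, which opens the hexosamine pathway, from 92.3 ± 1.31 to 248 ± 156 CPM. The aminotransferase count ran from 0 to 5 rising genes over the fits that left out 1 library, and the glutathione count from 2 to 4.

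Among the eIF2alpha kinases and regulators of the ATF4 family, 9 of 18 tested genes rose after siMondoA and 1 fell, with a median log2 change of 1.22. No gene of an eIF2alpha kinase was among those called. ATF4 stood at 257, 320 and 256 CPM with siControl, against 561, 839 and 629 in siMondoA (log2 1.29 ± 0.28, edgeR adjusted p = 0.00948). In siMLX it stood at 319, 694 and 336 CPM, highest in replicate 2, as were ASNS, CHAC1, CTH, PYCR1 and GPT2. CEBPB, which partners ATF4, rose by 1.51 ± 0.22 and PPP1R15B, which directs removal of the eIF2alpha phosphate, by 1.15 ± 0.20. Leaving out 1 library in turn gave 4 to 10 rising genes. After siMLX the numbers called over the 6 lists were 1 rising regulator of 18 (CEBPB) and 1 falling gene of the 14 in the transsulfuration list. After SBI-477, with the labels as given, 0 genes were called in any list, as in the whole table. In the drug libraries as labelled, ATF4 stood at 351, 358 and 318 CPM in DMSO and 248, 298 and 252 in SBI-477. It was lower without overlap, as was ASNS and as were 4.35% of all genes tested. With the replicate 2 libraries exchanged, the groups would overlap for ATF4, as they would for ASNS.

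**Figure D4:**
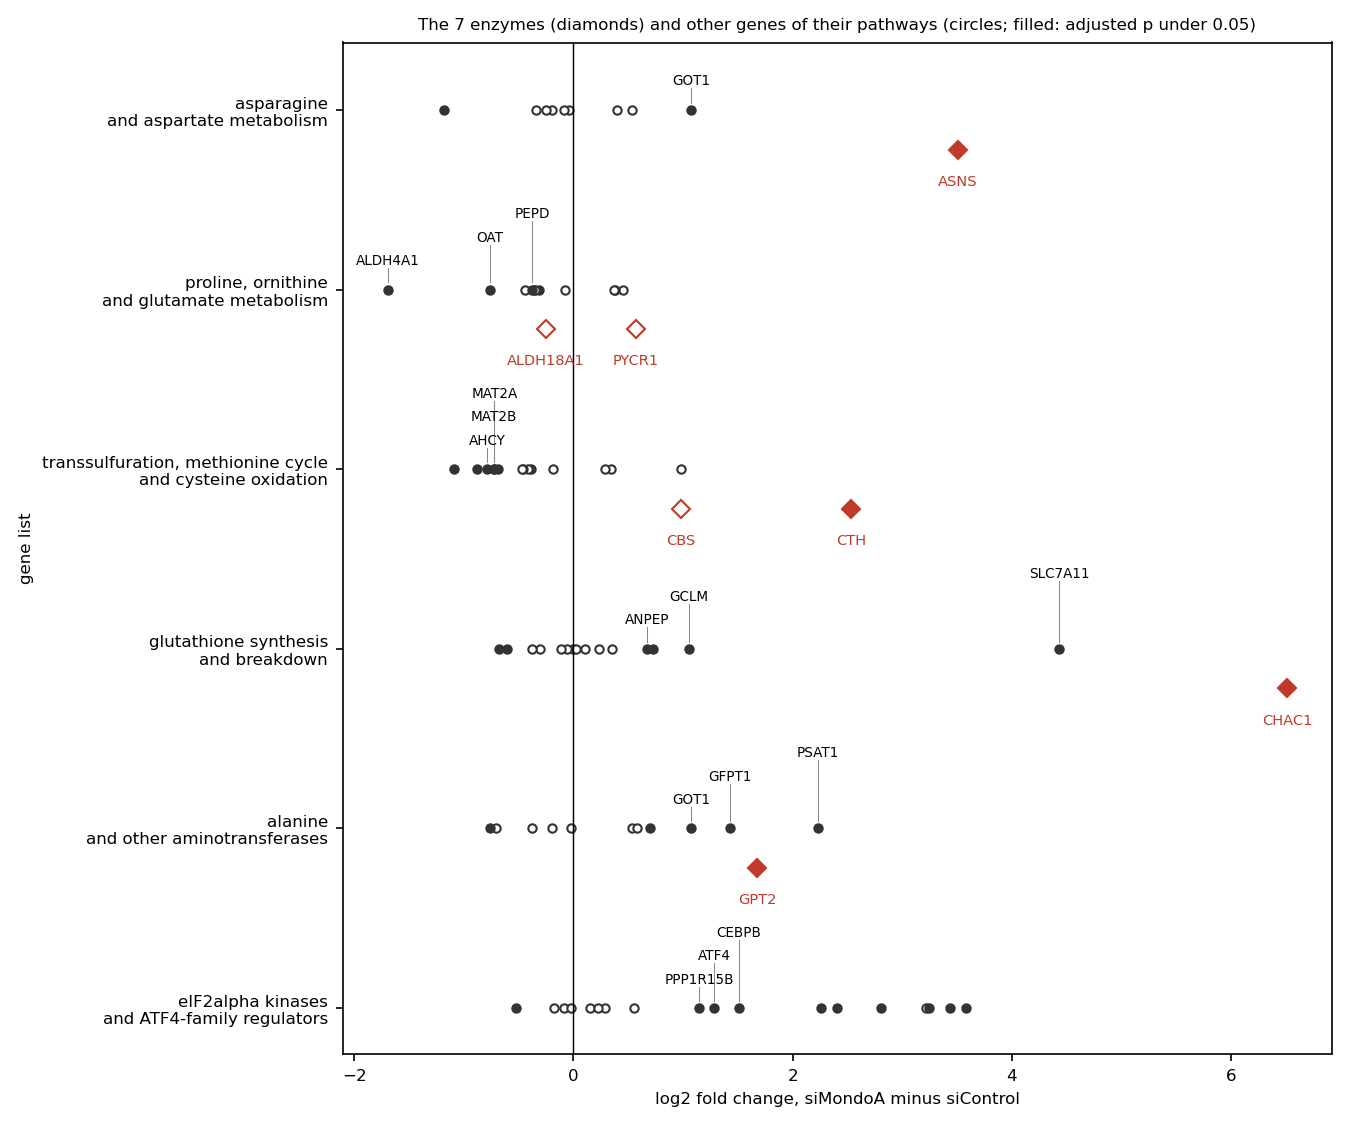
Log2 difference for siMondoA minus siControl of the 7 members (diamonds) and of the other tested genes of each list (circles), 1 row per list. Members sit between -0.25 and 6.51; the regulators' circles have a median of 1.22 and those of the transsulfuration list a median of -0.47.

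The genes whose pattern over the 15 libraries was closest to each member were found by the mean absolute difference of log2 CPM, each gene taken relative to the control libraries of its own experiment, among 10544 genes of at least 4 CPM on average. The nearest to ASNS were TRIB3 at 0.21, GDF15 at 0.36 and DDIT3 at 0.39, and the nearest to CTH were PSAT1 at 0.21, PXK at 0.23 and PCK2 at 0.24. DDIT3, a stress regulator, shows the shared pattern: it stood at 6.62, 9.99 and 5.80 CPM with siControl, at 67.6, 99.8 and 100 in siMondoA and at 9.78, 94.5 and 8.54 in siMLX. The nearest to CHAC1 were SLC7A11 at 0.74, IL1A at 0.80 and DDIT3 at 0.95. The nearest to GPT2 were YARS at 0.09, TUBE1 at 0.11 and MCL1 at 0.12. PYCR1 was closest to POLR3C and CDV3, both at 0.08, and ZPR1 at 0.09, and ALDH18A1 to CRKL at 0.04 and ZDHHC9 and ACTL6A, both at 0.07. CBS was closest to PABPC1L at 0.21, DCLRE1C at 0.22 and DMTF1 at 0.24. Genes with a small range have small differences to many others, so the values rank neighbours within a member and not between members.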

How the data were processed

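RNA-seq of 15 PSN-1 libraries was analysed. The authors deposited 1 table per experiment with a raw count per gene symbol and library, per the file headers, and in the same tables their own comparisons, deposited as log2 fold changes and p-values, raw and adjusted; no source used here names the tool behind these columns. Per the labels' protocols, Kapa libraries were made from 500 ng of RNA (Direct-zol) and read as 25-base pairs. The submitters' processing notes name TopHat2 2.1.0 and HTSeq 0.6.1 beside bcl2fastq 1.8.4 and edgeR, with hg38 and mm10 as builds, and do not say whether counting used strand.

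Deposited counts were tested with edgeR 4.0.16 under R 4.3.3 (filterByExpr, TMM, quasi-likelihood test, Benjamini-Hochberg over all genes, threshold 0.05), with the 9 siRNA libraries in 1 fit, the 6 drug libraries in another and all 15 for the interaction. Log2 CPM used a prior count of 2. Standard errors are the log2 difference over the root of the test statistic. DESeq2 1.42.0 was an alternative. The test was tried on simulated counts: for siMondoA minus siControl, over 12889 genes, 74% of 2-fold and 92.9% of 4-fold changes were recovered. Figures used matplotlib 3.10.9 under Python 3.11.15.

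The members and lists were chosen with earlier results of these data known. Other pathway genes named are up to 3 per list with the smallest adjusted p after siMondoA and at least 4 CPM, and the 3 genes most like each member; MLXIP and MLX are checks. TXNIP, DDIT3 by its library values, single marker genes and the other called genes of the transsulfuration list were named after their values were seen. Lists are described by counts and medians, with no set test. Replicates of a group differed beyond sampling noise (chi-square per degree of freedom at least 8.37). For replicate numbers, deviations from group means correlated at 0.32, 0.23 and 0.41 between same-numbered siControl and siMLX libraries. Each siControl library was closest to the siMLX library of its own number. The numbers may therefore pair these, though no label says so. The values were 0.15, 0.10 and 0.03 for siControl and siMondoA and 0.60, 0.49 and -0.11 for siMondoA and siMLX. They were -0.26, -0.57 and -0.49 for the drug groups. In these other comparisons the closest library did not always bear the same number, and pairing was not shown.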

Additional observations from a re-analysis of the deposited data

Results flagged for a closer look

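The effects of SBI-477 and siMondoA differed for 3 of the 7 genes in the interaction contrast (edgeR, 15 libraries labelled as given). The drug effect minus the siRNA effect was -4.09 for ASNS, -6.69 for CHAC1 and -1.80 for GPT2 on the log2 scale. With drug replicates 1 and 3 alone the values were -3.99 for ASNS (edgeR adjusted p = 0.0834), -6.59 for CHAC1 (0.0587) and -1.85 for GPT2 (0.0498). Over the 12 fits that left out 1 library, ASNS passed in 1, CHAC1 in 3 and GPT2 in 3, with adjusted p-values up to 0.116, 0.0771 and 0.0807.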

How the results depend on the processing

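After siMondoA, RLE size factors and the fit without a filter on low counts called 4 of the 7 members, as did the TMM fit. DESeq2 called 3 of the 6 to which it gave an adjusted p, and gave none to CHAC1. Leaving out 1 library in turn gave 0 to 5 members and 1745 to 3884 genes for siMondoA, 0 to 1 members and 254 to 833 genes for siMLX, 0 to 5 members and 670 to 2970 genes for siMondoA against siMLX, 0 members and 0 genes for SBI-477, and 0 to 4 members and 423 to 1680 genes for the interaction. Counts that moved by over 1.5 times from 1094 genes after siMLX were 1651 with DESeq2, 1815 with the replicate block, and 1923 with 1 member in the 6-library blocked fit, an alternative added after the data were seen. Without a filter on low counts, 1 member (CHAC1) was called after siMLX and 0 in siMondoA against siMLX. With the replicate block, siMondoA gave 5 members (PYCR1 added, edgeR adjusted p = 0.0268), and siMondoA against siMLX gave 2 members (GPT2 added) and 2606 genes, against 1673; these numbers are not shown to pair libraries. DESeq2 gave 1781 interaction genes against 1049. With drug replicates 1 and 3 alone, 1 member and 2575 genes were called for SBI-477 and 1 member and 1595 genes for the interaction. Directions turned for uncalled values only. After siMLX, CBS ran from -0.039 (without siControl replicate 1) to 0.69 over these fits, ASNS from -0.095 to 3.14 and CTH from -0.18 to 2.00, with both minima without siMLX replicate 2. PYCR1 in siMondoA against siMLX ran from -0.20 (without siMondoA replicate 2) to 0.34, and turned also without siMLX replicate 1. PYCR1 after SBI-477 ran from -0.11 (without DMSO replicate 3) to 0.15, and turned also without DMSO replicate 1 or SBI-477 replicate 3. The causes were not tested. Depth limits CBS and CHAC1, whose control libraries held as few as 5 and 8 counts.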
